A study of Mus musculus with 4 samples.

Results

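The transcripts of 9 genes for proteases that remodel extracellular matrix, their inhibitors and the plasminogen activators were followed in mouse kidney ureteric buds exposed to angiotensin II (AngII). The 9 genes were fixed by symbol: the tissue inhibitors of metalloproteinases Timp1, Timp2 and Timp3, the matrix metalloproteinase genes Mmp2, Mmp7 and Mmp14, the plasminogen activator genes Plat and Plau, and the urokinase receptor gene Plaur. A probe belonged to a gene when its accession mapped to that symbol, and 14 of 41174 probes did. All 9 genes had at least 1 probe that could be tested, out of 14994 tested features in all. Intact buds were held for 6 h in medium with 1e-05 M AngII or in medium alone. Both groups grew in a matrix gel, and the controls carried the same additions as the treated buds: HGF at 100 ng/ml, GDNF at 100 ng/ml and serum at 10%. The labels name no strain, embryonic age or number of animals behind an RNA. Each of 2 numbered pairs of AngII and media RNA was read on 2 two-colour arrays, with AngII in Cy5 on one and in Cy3 on the other, and every value below is a log2 ratio of AngII over media within an array unless it is named otherwise.

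Matrix metalloproteinases are zinc enzymes that cut collagens, laminins and other matrix proteins, and TIMPs block them by occupying the active site. The plasminogen activators, tissue-type (Plat) and urokinase-type (Plau), are serine proteases that turn plasminogen into plasmin, and their inhibitors are serpins rather than TIMPs. The urokinase receptor holds urokinase at the cell surface. In the developing kidney the bud branches into a surrounding matrix, and MMP-2 and its activator MMP-14 are known there for their part in branching.

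Under AngII, Timp1 was higher and Plau and Plaur were lower, each by more than 1.5-fold on the mean of the 4 arrays, while the other 6 genes moved less. With Agilent's processed signals, which carry no added offset, Mmp7 also passed 1.5-fold and made 4 genes (23.5% of all features reached it). Mmp7 was near background in media, so this is not read as support. Timp1 stood 3.18-fold higher, Plaur 2.16-fold lower and Plau 1.98-fold lower. Over all tested features, 10.9% differed by at least 1.5-fold (5.5% higher and 5.4% lower), and 2.12% differed by at least 2-fold (1.16% higher and 0.96% lower), as did 2 of the 9 genes. The AngII and media channel intensities of Timp1, Plau and Plaur, 3 of the 9 genes, did not overlap over the 4 arrays, and 10.7% of all features had no overlap. Those of Mmp7 lay apart by a narrow margin, but Mmp7 entered the test through its AngII channel and is not counted. In order of size Timp1 had the 21st largest increase among the 14994 features, Plaur the 101st largest decrease and Plau the 156th.

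The upstream sequences of Timp1 and Plaur are shown because these genes had the largest increase and the largest decrease of the 9 on the mean of the 4 arrays. That order is not fixed. With Agilent's processed signals Plau (-1.36) fell farther than Plaur (-1.15), as it did over the arrays with AngII in Cy3 (-1.38 and -1.12). With processed signals Mmp7 was at 1.91 and Timp1 at 1.71. Mmp7 was near background in media and entered the test through its AngII channel, so its place is not read. They are the 250 bases before the annotated start in RefSeq on GRCm38.p6, which for Timp1 is chrX:20869916-20870165 and for Plaur chr7:24462233-24462482, both on the plus strand, and capitals mark matches to any of 5 motifs searched on both strands.
Timp1: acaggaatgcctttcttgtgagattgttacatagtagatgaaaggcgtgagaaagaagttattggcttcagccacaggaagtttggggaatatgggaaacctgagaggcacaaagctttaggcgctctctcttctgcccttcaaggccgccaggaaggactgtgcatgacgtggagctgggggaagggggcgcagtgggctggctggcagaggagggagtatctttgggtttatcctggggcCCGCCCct
Plaur: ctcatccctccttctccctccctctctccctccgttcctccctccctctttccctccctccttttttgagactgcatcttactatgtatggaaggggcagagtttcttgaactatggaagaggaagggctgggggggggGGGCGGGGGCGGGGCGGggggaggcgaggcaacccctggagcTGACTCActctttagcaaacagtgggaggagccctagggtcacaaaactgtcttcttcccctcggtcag
The motifs were AP-1 (TGACTCA), STAT (TTCNNNGAA), Sp1 (GGGCGG), ETS (CCGGAAGT) and the TATA box (TATAAA). In the Plaur window the AP-1 letters began 69 bases before the start and Sp1 letters occurred 3 times, side by side or overlapping by 1 base. The Timp1 window held the Sp1 letters once, 8 bases before the start. Of 32851 windows of this length, 4.46% held the AP-1 letters, 32.7% Sp1, 12.4% the TATA box, 7.02% STAT and 2.88% ETS. The table listed 6 member genes in 7 entries, without Mmp2, Plat and Plau. The AP-1 letters also stood 63 bases before the start of 1 of the 2 Mmp7 entries, beside 2 TATA box matches, and the Sp1 letters stood in the windows of Timp2, Timp3 and Mmp14. These matches describe the letters only.

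A feature was called where limma, a linear model with moderated variances run on all features, gave a Benjamini-Hochberg adjusted p under 0.05 against a ratio of 0. By that rule 77.2% of all features passed, 39.1% higher and 38.1% lower, and all 9 genes passed, 5 higher and 4 lower. Where a probe had to be well above background in both RNAs on all arrays, Mmp7 was left out and the other 8 passed, against 79.1% of the features then tested. Passing therefore separates a gene little from the rest. One sign on all 4 arrays was also common, in 59.1% of all features and in 7 of the 9 genes. The ratios of the numbered replicates differed no more than arrays do: the SD across features of their half-difference was 0.04, against 0.04 for the contrast that holds array noise alone, and 0 features differed between replicates in limma (767 at an unadjusted p under 0.05). The labels call the numbered pairs biological replicates. Because they differed by no more than array noise, they were counted here as 1 independent pair of RNA samples, against that label, and the limma p-values measure the spread between hybridisations, not between animals or cultures. The dye orientation moved values more, with an SD of 0.16 for the half-difference between orientations. With the 4 arrays fitted separately and the replicate number as a block, this dye spread enters the error. Then 4638 features (30.9%) passed instead of 11569, and 6 of the 9 genes did instead of 9. The genes that no longer passed were Timp3, Mmp14 and Plat.

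**Figure D1:**
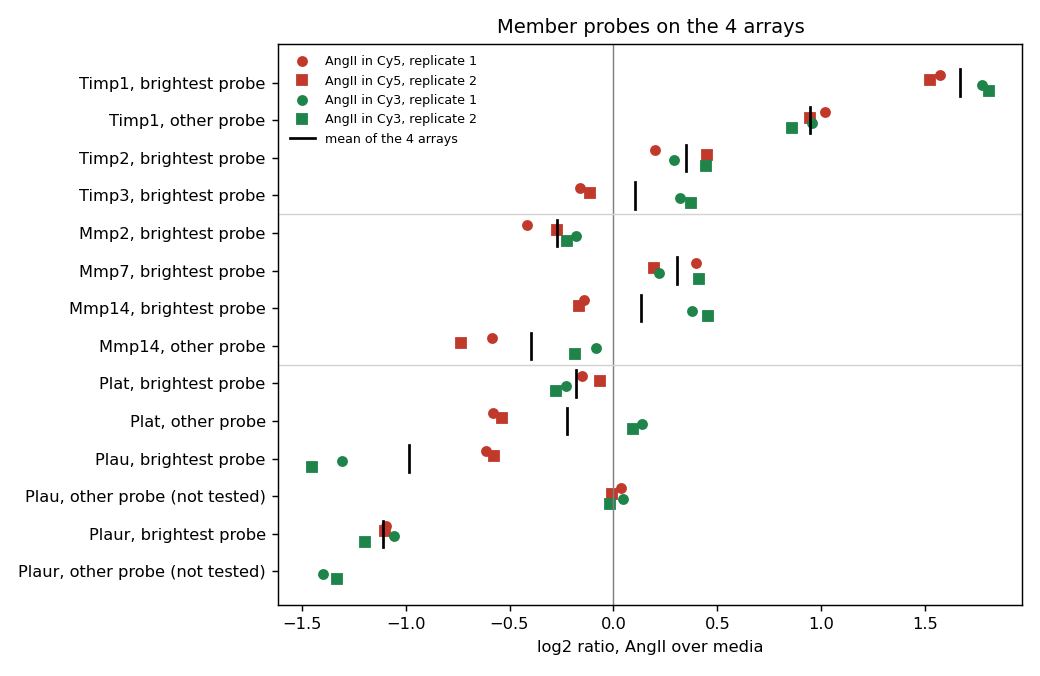
Log2 ratio of AngII over media (x axis) for each of the 14 member probes (y axis) on each array; red marks AngII in Cy5, green AngII in Cy3, circles replicate 1, squares replicate 2, and the black bar the mean of the 4 arrays for tested probes. Timp1 lies right of 0 and the tested Plau and Plaur probes left of 0 on all 4 arrays, while Timp3 and the brightest Mmp14 probe lie on both sides by dye.

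Timp1, which encodes the secreted inhibitor that binds pro-MMP-9 and most active MMPs, rose on every array. Its log2 ratio was 1.57 and 1.52 on the arrays with AngII in Cy5 and 1.77 and 1.81 on those with AngII in Cy3, for replicates 1 and 2 in turn. The mean was 1.67 (limma SE 0.03; adjusted p = 7.66e-22, and 0.00296 with the replicate block). In the channels themselves, after normalisation, the log2 intensity of Timp1 in AngII was 12.16, 11.86, 12.84 and 12.99 on these arrays in the same order, against 10.59, 10.34, 11.07 and 11.18 in media. The lowest AngII value stood above the highest media value, so the 2 groups did not overlap. The dimmer Timp1 probe also rose on every array but by less, at 1.02, 0.95, 0.95 and 0.86, with a mean of 0.94 (1.92-fold). Its SE of 0.04 and adjusted p of 3.65e-22 come from a separate limma fit over all tested probes. They are not comparable with those of the brightest probe. The size of the Timp1 increase thus depends on the probe by more than 1.5-fold, and its direction does not.

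Timp2, the inhibitor that also links pro-MMP-2 to MMP-14 at the cell surface, rose by less. Its ratios were 0.20 and 0.45 with AngII in Cy5 and 0.29 and 0.45 with AngII in Cy3, a mean of 0.35 (1.27-fold; limma SE 0.04, adjusted p = 3.30e-08). All 4 arrays had it higher, and replicate 1 (0.25) lay below replicate 2 (0.45). Across all features, 28.2% had a ratio of larger size.

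Timp3, the TIMP that stays bound to the matrix, had no common direction. It was at -0.16 and -0.11 with AngII in Cy5 and at 0.32 and 0.37 with AngII in Cy3. The mean of 0.10 passed in limma (adjusted p = 0.00856) and not with the replicate block (0.573). Its difference between dye orientations exceeded its mean, so no direction under AngII can be read from this probe.

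Among the metalloproteinases, Mmp2, the gelatinase A gene, was lower on all 4 arrays. Its ratios were -0.42 and -0.27 with AngII in Cy5 and -0.18 and -0.22 with AngII in Cy3. The mean was -0.27 (1.21-fold lower; limma SE 0.03, adjusted p = 1.43e-07, and 0.0465 with the replicate block). The AngII and media intensities overlapped between arrays, and the decrease is seen within each array.

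Mmp7, the matrilysin gene of epithelial cells, was near background. It was well above background on all 4 arrays in AngII and on 1 of 4 in media. Its ratios were 0.40, 0.20, 0.22 and 0.41 in the order used above, with a mean of 0.31. The gene was tested through its AngII channel, so its call is not read as support and no fold is given. With Agilent's processed signals the mean was 1.91. The mean was above 0 in both settings, and its size moved with the setting.

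Mmp14, the membrane-type protease that activates pro-MMP-2, gave probes of opposite sign. The brightest probe was at -0.14 and -0.17 with AngII in Cy5 and at 0.38 and 0.46 with AngII in Cy3, with a mean of 0.13 (adjusted p = 0.00125 in limma, and 0.534 with the replicate block). The dimmer probe was below 0 on all arrays, at -0.58, -0.73, -0.09 and -0.18, with a mean of -0.40. Its adjusted p was 9.24e-12 in the separate limma fit over all tested probes. Both probes were higher with AngII in Cy3, by 0.57 and 0.52. The data give no single direction for Mmp14.

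**Figure D2:**
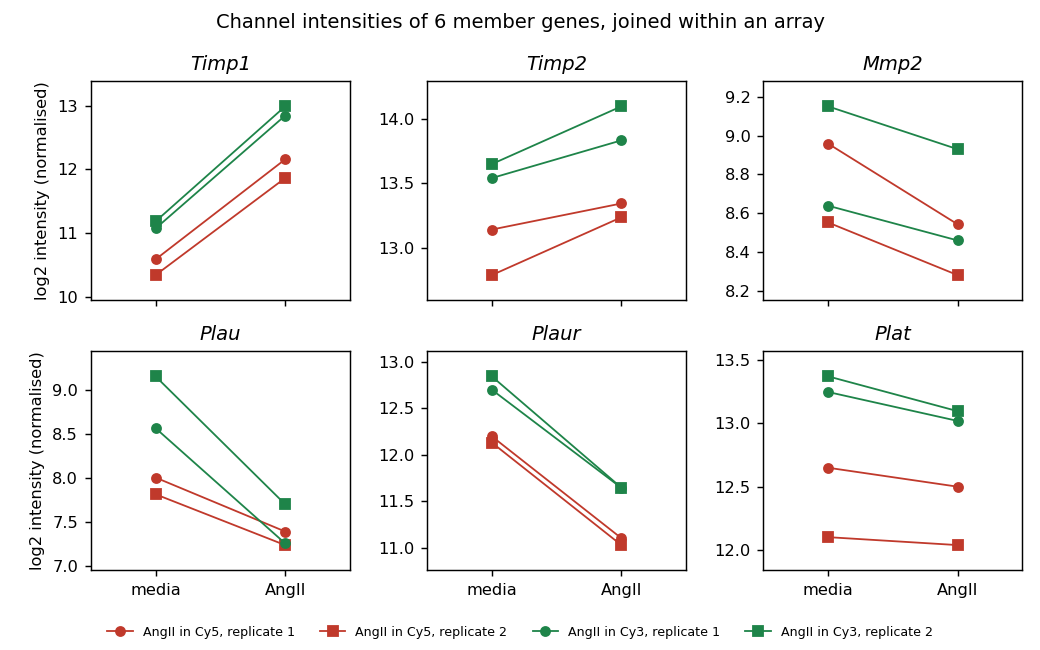
Normalised log2 intensity (y axis, own range in each panel) in media and in AngII (x axis) for 6 member genes at the brightest probe; each line joins the 2 channels of 1 array, coloured by the dye that held AngII, circles replicate 1 and squares replicate 2. All 4 lines rise for Timp1 and Timp2 and fall for Mmp2, Plau, Plaur and Plat.

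The TIMP genes were set against the metalloproteinase genes, as a description with no test. Single genes are paired below by their ratios, whether or not that TIMP blocks that enzyme. The median ratio of the 3 TIMPs exceeded that of the 3 metalloproteinases on each array, by 0.35 and 0.61 with AngII in Cy5 and by 0.10 and 0.03 with AngII in Cy3. On the means the medians were 0.35 and 0.13, a difference of 0.22. These medians on the means are the values of Timp2 and Mmp14, so they leave out the far larger Timp1. With AngII in Cy3 the metalloproteinase median was instead Mmp7 (0.22 and 0.41), which was tested through its AngII channel. On the replicate 1 array of that orientation the TIMP median was Timp3 (0.32). Without Mmp7, which was near background in media, the difference on the means was 0.42. The difference ran from 0.054 over the arrays with AngII in Cy3, where it rests on Mmp7, to 0.48 over those with AngII in Cy5. It was 0.48 where the probes of a gene were averaged. Between single genes, Timp1 minus Mmp2 lay between 1.79 and 2.03 over the 4 arrays and Timp1 minus Mmp14 between 1.35 and 1.71. Timp2 minus Mmp2 lay between 0.47 and 0.72, whereas Timp2 minus Mmp14 was above 0 on 2 of 4 arrays (-0.09 to 0.61).

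At their brightest probes the plasminogen activators and the receptor were all lower, Plat by little. Plaur had the steadiest ratio of the 3, at -1.09 and -1.10 with AngII in Cy5 and -1.05 and -1.20 with AngII in Cy3. It fell by 1.11 on the log2 scale (limma SE 0.03, adjusted p = 1.69e-18, and 0.00296 with the replicate block). The log2 intensity of Plaur was 11.11, 11.03, 11.65 and 11.65 in AngII and 12.20, 12.13, 12.70 and 12.84 in media, and the groups did not overlap. The other Plaur probe was flagged as an outlier spot on both arrays with AngII in Cy5 and was not tested. It had -1.40 and -1.33 on the other arrays, and -1.25 and -1.21 on the flagged ones when those spots were kept.

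Plau fell on every array, by amounts that differed with the dye. Its ratios were -0.61 and -0.58 with AngII in Cy5 and -1.31 and -1.45 with AngII in Cy3. The mean was -0.99 (limma SE 0.03, adjusted p = 1.24e-17, and 0.0229 with the replicate block). The log2 intensity was 7.40, 7.24, 7.26 and 7.70 in AngII and 8.01, 7.82, 8.57 and 9.15 in media, so the highest AngII value lay below the lowest media value. The half-difference between dye orientations was 0.39, larger than in all but 2.55% of features, which leaves the direction but not the size of the decrease. The other Plau probe was not well above background on any array in either RNA.

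Plat changed least of the 3. Its brightest probe was at -0.15 and -0.06 with AngII in Cy5 and -0.23 and -0.27 with AngII in Cy3, with a mean of -0.18 (1.13-fold lower; adjusted p = 4.65e-05 in limma, and 0.119 with the replicate block). Across all features, 53.0% had a ratio of larger size than this probe. The dimmer Plat probe was at -0.58, -0.54, 0.14 and 0.09, with a mean of -0.22 and a sign that turned with the dye. Within arrays Plat exceeded Plau by between 0.46 and 1.17, so its ratio was nearer 0 than that of Plau on each array.

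Among the serpins, Serpine2, protease nexin 1, which inhibits urokinase and thrombin, was at 0.28, 0.34, 0.62 and 0.49, with a mean of 0.43 (limma adjusted p = 4.55e-11). Serpinb2, which inhibits both activators, had a mean of 0.26 (0.16 to 0.37). Both lay above 0 on all 4 arrays. They were dim (mean log2 intensity 6.45 and 6.30), and Serpinb2 was well above background on 1 of 4 arrays in media, so its call is not read. With Agilent's processed signals Serpine2 was at 1.30 and Serpinb2 at 1.34.

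**Figure D3:**
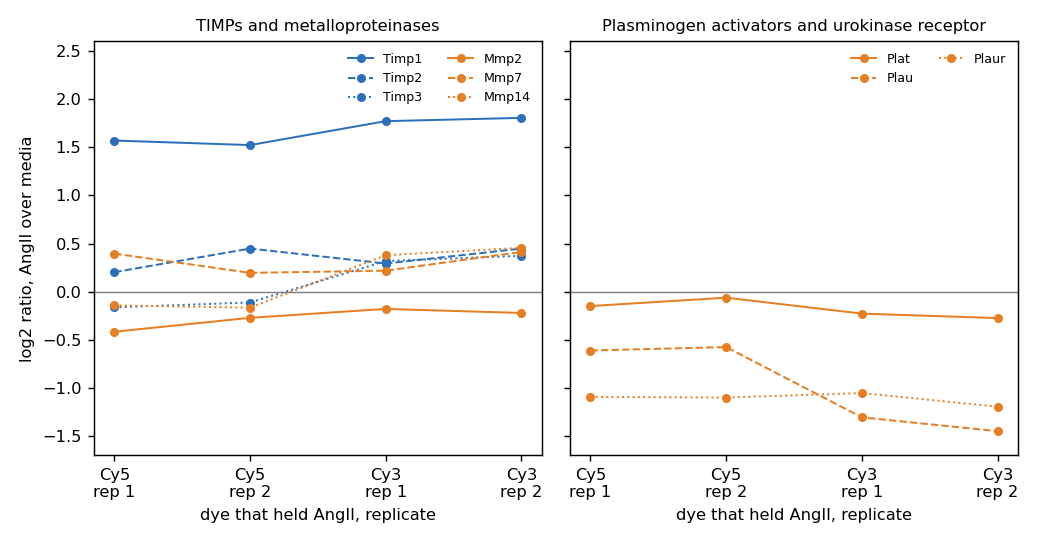
Log2 ratio of AngII over media (y axis) on the 4 arrays (x axis, by the dye that held AngII and the replicate); blue marks the TIMPs, orange the enzymes and, on the right, the receptor gene Plaur, and lines only connect the values of 1 gene at its brightest probe. Timp1 lies above all MMP genes shown on every array, and Plat lies nearer 0 than Plau and Plaur on every array.

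A list of 93 other genes of matrix proteolysis, the plasminogen system and their inhibitors gave the surroundings of these genes. Of 62 tested members 40 rose, 16 fell and 6 failed to pass, so that 90.3% passed, against 77.2% of all features (39.1% higher and 38.1% lower). Their median was 0.21, against 2.8e-05 over all features. At least 1.5-fold was reached by 12 (19.4%), 10 higher and 2 lower, against 10.9% of all features (5.5% higher and 5.4% lower). With the replicate block 30 of the 62 passed (48.4%), against 30.9% of all features. Of the 62, 5 genes were tested through AngII alone and 1 through media alone. Without these 6, 35 of 56 rose and 15 fell, and 11 reached 1.5-fold. That is 89.3% passed and 19.6% at 1.5-fold, against 79.1% and 11.6% of features well above background in both RNAs on all arrays. The median was 0.059 when dim probes were kept. Of the 24 named here, 9 did not pass with the block (limma adjusted p from 0.0502 to 0.382): Reck, Mmp15, Adam17, Bmp1, Lrp1, St14, Ctsl, Lgmn and Cstb.

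In the metalloproteinase group 4 of 6 tested genes rose and none fell, so that 66.7% passed, below the 77.2% of all features. With the block 3 passed. A further 12 with a probe were too dim to test. Mmp9, among the 4, entered the test through AngII alone. Where a probe had to be well above background in both RNAs on all arrays, 3 of 5 rose and none fell. Then 60.0% passed, against 79.1% of the features tested. Mmp9, gelatinase B, had 0.85 (0.74 to 0.97 over the 4 arrays; well above background on 3 of 4 arrays in media), and its other tested probe 0.77. Mmp23 had 0.78 (0.63 to 0.93) and Mmp11, stromelysin 3, 0.48 (0.26 to 0.66), while Mmp15 had 0.09 (-0.08 to 0.17). Timp1 exceeded Mmp9 within each array, by 0.77 to 0.89, but with Agilent's processed signals Mmp9 was at 2.61 and Timp1 at 1.71, so their order turned with that setting. Reck, a membrane-anchored inhibitor of MMPs, was at -0.30 (-0.50 to -0.10). Timp4 was too dim to test as well.

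Of 12 ADAM and ADAMTS proteases 6 rose and 5 fell (91.7% passed, against 77.2% of all features). With the block 5 of the 12 passed (41.7%), against 30.9% of all features. Adamts10, among those that fell, entered the test through media alone. Without it 6 of 11 rose and 4 fell (90.9% passed, against 79.1% of features well above background in both RNAs on all arrays). Adamts2, which trims procollagen ends, rose by 0.67, and the sheddase gene Adam17 was at -0.34 (-0.53 to -0.12). Bmp1, a procollagen C-proteinase, was at -0.34, with a range from -0.73 to 0.03.

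In the plasminogen group 4 of 6 tested genes rose and 2 fell, and 4 of the 6 passed with the block, against 77.2% and 30.9% of all features. Plgrkt, a plasminogen receptor, rose by 0.88 (0.65 to 1.11). Lrp1, the endocytic receptor that clears complexes of proteases with serpins, was at -0.45 (-0.70 to -0.17). Of the 10 tested serpins counted here 8 rose and 1 fell (90.0% passed, against 77.2% of all features). With the block 6 of the 10 passed (60.0%), against 30.9% of all features. Serpinb2 and Serpinb9, both among the 8, entered the test through AngII alone. Where a probe had to be well above background in both RNAs on all arrays, 6 of 8 rose and 1 fell. Then 87.5% passed, against 79.1% of the features tested. On the mean ratio none of the 10 serpins reached 1.5-fold, against 10.9% of all features. With Agilent's processed signals 3 of the 10 did (30.0%), against 23.5% of all features.

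Membrane serine proteases and their Kunitz inhibitors passed in 9 of 9 tested cases, 7 higher and 2 lower, and in 6 of 9 with the block, against 77.2% and 30.9% of all features. Tmprss4 and Tfpi2, both among the 7, entered the test through AngII alone. Where a probe had to be well above background in both RNAs on all arrays, 5 of 7 rose and 2 fell. All 7 then passed, against 79.1% of the features tested. Tmprss2 rose by 0.85 (0.73 to 0.91; 0.85 at its other probe), and Hpn, hepsin, was at 0.72 with -0.03 at its other probe. Prss8, prostasin, which activates the epithelial sodium channel, fell by 0.73 (-0.82 to -0.64). Spint1, an inhibitor of hepsin and matriptase, fell by 0.57 (-0.59 to -0.55; -0.90 at its other probe). St14, matriptase, was at 0.15 with -0.23 at its other probe. Adam10 and Spint2 had no probe named through an accession.

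Cathepsins, proteases of the lysosome, and their partners had 9 of 10 that rose and 1 that fell, where 39.1% of all features rose and 38.1% fell. With the block 2 of the 10 passed (20.0%), against 30.9% of all features. Ctsh rose by 0.95 (0.60 to 1.27). Ctsb had 0.84 at its brightest probe and 0.14 at the other. The cystatin gene Cstb, an inhibitor of cathepsins, had 0.61, with a wide range of 0.14 to 1.12, and Ctsl had 0.17 and Lgmn, legumain, 0.14 (-0.03 to 0.40). Among the rest Htra1, a secreted serine protease, rose by 1.02, again with a wide range (0.48 to 1.56), and Loxl2, a collagen crosslinking oxidase, fell by 0.63.

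**Figure D4:**
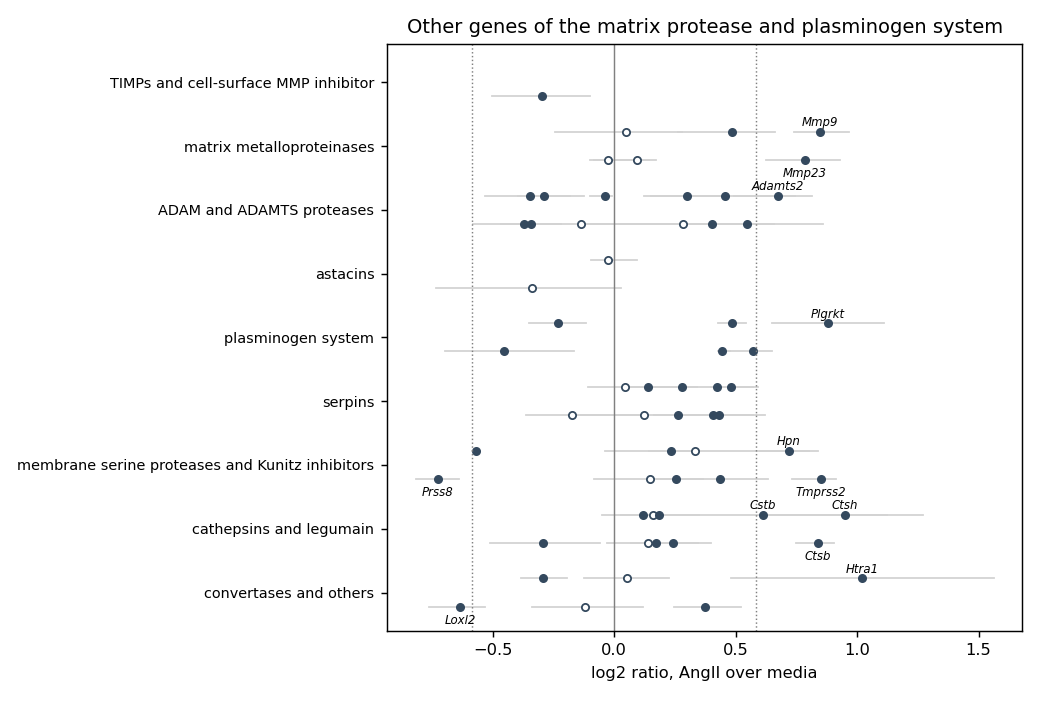
Log2 ratio of AngII over media (x axis) for the 62 tested genes of the list, by group (y axis; genes are offset vertically for legibility); points are means, grey lines span the lowest to the highest of the 4 arrays, filled points have one sign on all arrays and open points do not, and dotted lines mark 1.5-fold. The 12 genes past 1.5-fold are labelled, and 10 of them lie to the right.

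The labelled tissue was checked on marker genes. Counts of markers are read beside all features, of which 77.2% passed, 39.1% higher and 38.1% lower. Of 16 ureteric bud epithelium markers 15 were tested, the exception being the dim Ret, with 7 higher and 6 lower (86.7% passed). In that list 26.7% reached 1.5-fold, against 10.9% of all features. These were Wnt9b at 1.53 and Epcam at 0.73, and Wnt7b at -1.13 and Krt8 at -0.59. The summed log2 level of the bud markers ran from 17.68 to 17.98 in AngII and from 17.80 to 18.44 in media. Stroma and mesenchyme markers were present as well, with 13 of 14 tested, 6 higher and 2 lower. Their median was 0.06, and their summed log2 level ran from 15.31 to 16.23 in AngII and from 15.18 to 15.78 in media. In that list 2 of the 13 tested genes reached 1.5-fold, both higher (15.4%, against 10.9% of all features). These were Acta2 at 1.69, with 0.65 and 1.03 at its other probes, and Thy1 at 0.85, with 0.07 at its other probe. Vim had -0.07. One sign on all 4 arrays was seen in 5 of the 13, against 59.1% of all features. Erythroid markers rose in 7 of 8 tested cases, with a median of 2.06 and a summed log2 level of 14.82 to 15.41 in AngII against 12.30 to 13.18 in media. Leukocyte markers, with 3 of 8 higher and 4 lower, had a median of -0.07, and a summed log2 level of 9.69 to 10.00 in AngII and 9.56 to 9.90 in media. Endothelial and neural markers had medians of -0.09 and -0.36 over 8 and 2 tested genes, and nephron progenitor markers -0.30 over 8. The part of these cell types in the ratios of Timp1, Plau and Plaur was not tested, and in bulk RNA a change in the number of cells of a type and a change in RNA per cell cannot be told apart.

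The authors' deposited table, made with limma on the same arrays, called 7 of the 9 genes at the same probes. In the fit here 77.2% of all features passed. The share of all features called by the authors was not counted, so 7 of 9 is not read as a result about these genes. It gave Timp1 a log2 ratio of 1.66, Plaur -1.14 and Plau -1.11, all called. At these brightest probes Timp3 and Mmp14 were the 2 not called in the authors' deposited table, with adjusted p of 0.219 and 0.156. The dimmer Mmp14 probe was called lower there, at -0.42 (limma adjusted p of 0.00053).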

How the data were processed

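Feature Extraction 10.5.1.1 produced the scanner tables of the 4 two-colour Agilent arrays (file headers). The deposited intensity columns hold each spot's median pixel intensity and that of its background, both uncorrected, and a processed intensity from which the software had removed background and dye bias. The deposited log10 ratio divides processed red by processed green. The authors' deposited table gives log2 ratios, adjusted p-values and a call scored -1, 0 or 1 (a score). The submitters' processing notes name limma; how the table was normalised was not given.

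Here, in R 4.3.3 with limma 3.58.1, normexp (offset 50) corrected the background, loess normalised each array, spots flagged as outliers were dropped and a probe's spots averaged. The ratios of arrays with AngII in Cy3 were turned. The 2 arrays of a replicate number, which share RNA extracts, were averaged, and both averages were tested against 0 with lmFit and eBayes. Each array pairs the AngII and media RNA of 1 number. Probes were kept if well above background in 1 RNA on all 4 arrays (19390 of 41174), and the brightest probe stood for a gene. Values of other probes come from a separate fit over all tested probes. Between 19024 and 21919 probes were well above background per channel, and the number of arrays limits the precision. Accessions named 25097 probes through RefSeq genes of GRCm38.p6. The array annotation is of another build, so no coordinates were taken from it. Those printed for the Timp1 and Plaur windows are of GRCm38.p6. Named genes were the members, 18 listed genes by name, and list genes that passed at 1.5-fold or more with one sign. One listed gene, and the comparison of the activators with their inhibitors that needs it, is not reported here and enters no count of the list. Members and lists were chosen with earlier results of these data known. In simulated data for this comparison over 14994 features, 50 of 50 genes changed by 0.50 were recovered and 11 of 14794 unchanged ones were called. The simulation holds array noise and dye effects as measured and no spread between animals.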

Additional observations from a re-analysis of the deposited data

Results flagged for a closer look

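For 5 of 36 probes of members and named list genes, both arrays with AngII in Cy5 lay on one side of 0 and both with AngII in Cy3 on the other; this difference was not tested. Among all tested features 21.7% did so. The ratio with AngII in Cy5 minus that with AngII in Cy3 was -0.48 for Timp3 (-0.14 and 0.35), -0.57 for the brightest Mmp14 probe (-0.15 and 0.42), -0.67 for the dimmer Plat probe (-0.56 and 0.11), -0.43 for St14 (-0.07 and 0.36) and 0.34 for Lgmn (0.31 and -0.03).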

How the results depend on the processing

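Across the alternatives run, Timp1, Timp2, Mmp2, Mmp7, Plat, Plau and Plaur kept their direction, with ranges of 1.31 to 1.79, 0.25 to 0.45, -0.34 to -0.20, 0.30 to 1.91, -0.25 to -0.11, -1.38 to -0.59 and -1.15 to -1.03. The following turned sign: Timp3 (-0.14), Mmp14 (-0.15) and St14 (-0.066) over the Cy5 arrays (those with AngII in Cy5), Lgmn (-0.027) over the Cy3 arrays, and Mmp14 (-0.13) and St14 (-0.044) with gene means (a gene's probes averaged). With the replicate block 4638 features, 6 members and 30 list genes passed. The other alternatives gave 8 or 9 members that passed. With Agilent's processed signals 3525 features, 4 members (3 otherwise, with Mmp7 added) and 23 list genes reached 1.5-fold, and Mmp9 was at 2.61 instead of 0.85. The excess of TIMPs over metalloproteinases (0.22) was 0.42 with the stricter filter, where Mmp7 drops out, and 0.48 with gene means. It was 0.48 over the Cy5 arrays and 0.054 over the Cy3 arrays, where the metalloproteinase median is Mmp7. The list median (0.21) was 0.29 with processed signals, 0.23 with background left in, 0.25 with median centring, 0.059 with dim probes kept, 0.17 with the stricter filter, 0.19 over the Cy5 arrays and 0.23 over the Cy3 arrays. Leaving out a replicate gave 0.13 to 0.30 for the TIMPs against metalloproteinases and 0.20 to 0.21 for the list median, with 1632 to 1655 features, 3 members and 13 list genes at 1.5-fold. Keeping outlier-flagged spots, chosen after seeing the data, changed no member's call. The causes were not tested beyond genes dropping out. Low signal over background limits Mmp7, Serpine2 and Serpinb2.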
